A study of Mus musculus with 18 samples.

Results

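Nr3c1, the gene of the glucocorticoid receptor, and 7 genes that the receptor is known to induce directly (Fkbp5, Tsc22d3, Sgk1, Klf9, Cebpd, Ddit4 and Zbtb16) were followed for 32 h after cells had been released from a glucocorticoid. These 8 genes were taken by name, with earlier results of these data known, from the 21937 genes of the deposited table of normalized read counts. Averaged over all libraries, 7 of the 8 reached 10 normalized reads and were among the 12393 genes tested, and Zbtb16 did not. The cells were NIH3T3, an established line of mouse embryo fibroblasts. All of them had received dexamethasone, a synthetic glucocorticoid, at 100 nM for 2 h, and 0 h was the change to normal medium that ended this pulse. Harvests followed at intervals of 4 h up to 32 h, which makes 9 times, and each time has a replicate 1 and a replicate 2, or 18 libraries. Untreated cells were not among the samples, so the level before the pulse is unknown here and each change is given from another time of the same course. The labels do not state whether the replicates were separate cultures, so the p-values measure only the spread between these libraries, which may be technical.

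The glucocorticoid receptor is a nuclear receptor that waits in the cytoplasm in a complex with heat shock proteins and their co-chaperones. Ligand releases it to the nucleus, where it binds as a dimer to glucocorticoid response elements and raises transcription of nearby genes, several of which, such as Fkbp5, feed back on the receptor. In cultured fibroblasts a glucocorticoid pulse also aligns the circadian clocks of the cells, in part through Per1, and Klf9 is known as a gene under the control of both the hormone and the clock.

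Reads in genes per library numbered 31878642 to 38867189 in replicate 1 and 25405004 to 32034822 in replicate 2. All 8 fibroblast markers looked at were among the tested genes, and their summed level lay between 851533 and 1226480 normalized reads. Of the markers of other cell types, 1 of 6 was tested for adipocytes (summed level 25.2 to 63.7 normalized reads), 2 of 6 for leukocytes (174 to 302), 2 of 5 for endothelium (42.5 to 105) and 2 of 5 for muscle (38.9 to 96.8). Cd68 (leukocytes, mean 224), Des (muscle, 53.6), Cdh5 (endothelium, 38.9) and Fabp4 (adipocytes, 38.9) led these sums, while Lep (adipocytes), Cd3e (T cells), Kdr (endothelium) and Myod1 (muscle) were at 0 in all libraries. Of 6 epithelial markers 3 were tested, with Epcam and Cdh1 at no more than 3.86 normalized reads in any library. Krt8, which fibroblast lines can express, carried most of their sum. The epithelial sum moved with time, from 1048 at 0 h and 1030 at 4 h to 354 at 12 h and 198 at 24 h (means of 2 libraries), and the fibroblast sum fell from a mean of 1190950 at 0 h to 858797 at 24 h. The part of either in the changes below was not tested. In bulk RNA such as this, fewer cells with a transcript and less transcript per cell cannot be told apart.

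Promoter windows were looked at because the receptor acts on DNA: RefSeq windows of 300 bases, from 250 before to 50 after an annotated start, were at hand for 5 of the 8 genes (12 windows, build GRCm38.p6, a later build than the mm9 named in the submitters' processing notes). Each window was searched on both strands for a full glucocorticoid response element (GNACANNNTGTNC), for the receptor half-site (TGTTCT or AGAACA, which can overlap the full element) and for the E-box bound by CLOCK and BMAL1 (CACGTG). The full element was in 1 of the 12 windows and in 0.475% of all 32851 windows, the half-site in 4 of 12 and 19% of all, and the E-box in 2 of 12 and 7.15% of all. Windows of the same gene were counted separately, and those with a half-site were all of Sgk1 or Tsc22d3. The 3 windows shown hold, in capitals, the full element of Sgk1 with the half-sites and E-box of the same window (chr10:21993640-21993939, plus strand), the E-box of Fkbp5 (chr17:28486100-28486399, minus strand) and a half-site of Tsc22d3 (chrX:140600473-140600772, minus strand).
Sgk1: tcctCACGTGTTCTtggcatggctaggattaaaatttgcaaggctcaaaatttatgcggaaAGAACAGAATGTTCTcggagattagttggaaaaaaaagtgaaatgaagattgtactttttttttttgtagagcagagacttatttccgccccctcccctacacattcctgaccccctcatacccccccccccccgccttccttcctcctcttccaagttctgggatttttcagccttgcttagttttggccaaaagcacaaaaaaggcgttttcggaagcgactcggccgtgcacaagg
Fkbp5: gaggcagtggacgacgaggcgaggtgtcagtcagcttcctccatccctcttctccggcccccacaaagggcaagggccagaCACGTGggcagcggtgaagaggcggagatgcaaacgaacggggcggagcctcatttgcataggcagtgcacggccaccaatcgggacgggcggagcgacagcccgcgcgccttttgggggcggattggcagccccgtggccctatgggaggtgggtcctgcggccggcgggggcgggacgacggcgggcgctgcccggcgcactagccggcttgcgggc
Tsc22d3: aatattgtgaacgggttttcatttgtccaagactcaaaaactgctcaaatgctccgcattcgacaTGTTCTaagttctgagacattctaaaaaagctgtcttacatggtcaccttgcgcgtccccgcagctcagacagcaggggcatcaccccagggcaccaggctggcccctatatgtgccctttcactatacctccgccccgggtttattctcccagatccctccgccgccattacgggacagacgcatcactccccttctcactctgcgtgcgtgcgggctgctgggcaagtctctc

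In the Sgk1 window the full element, read as GAACAGAATGTTC, ends 175 bases before the start, and 3 half-site matches and the E-box are in the same window. The half-site matches that end 183 and 174 bases before the start overlap the full element. The other half-site match ends 236 bases before the start and overlaps the E-box. The Fkbp5 E-box ends 163 bases before its start and the Tsc22d3 half-site 179 bases before. Sgk1 has 6 annotated windows and Tsc22d3 has 3, and which start these cells used was not measured. Neither the Klf9 nor the Ddit4 window held any of the 3 motifs. A match of letters is a description of the window and no evidence of binding.

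**Figure D1:**
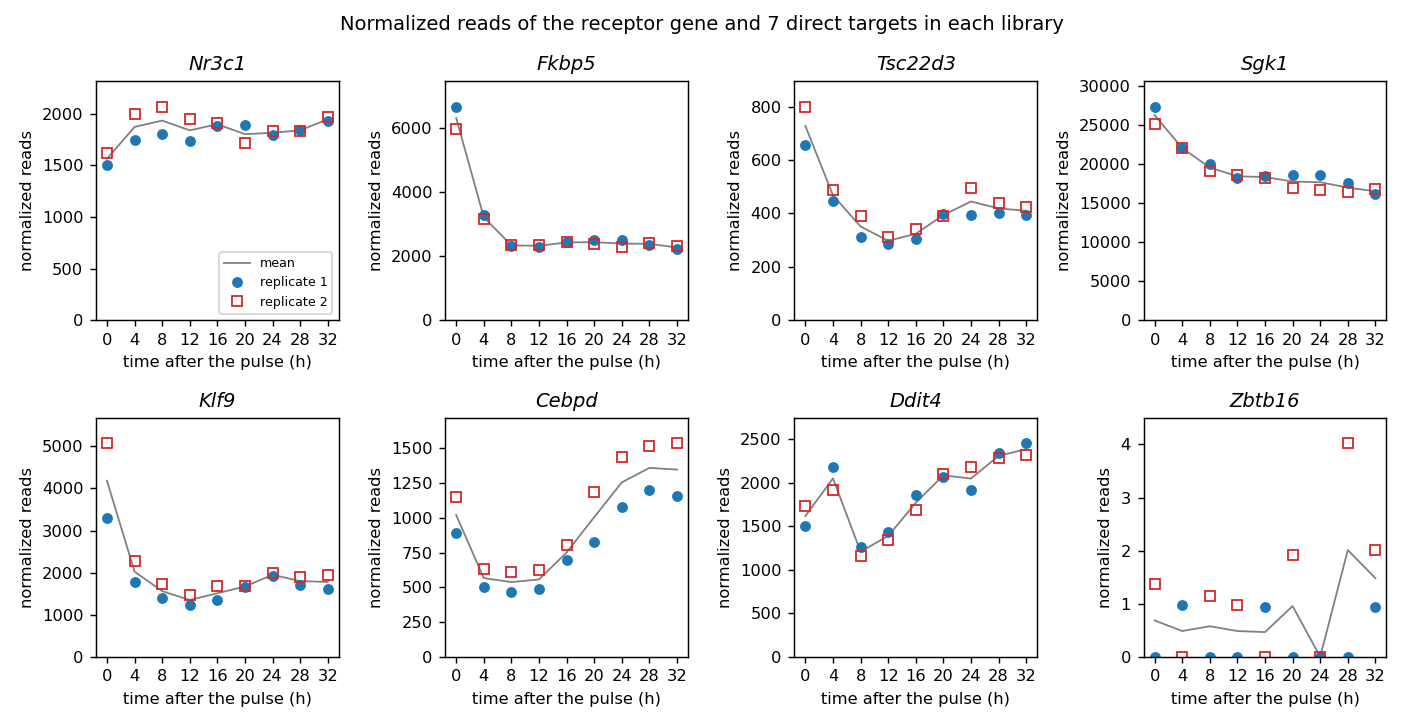
Normalized reads (y axis, linear from 0) against time after the pulse in hours (x axis) for the 8 genes, 1 panel each. Filled circles are replicate 1, open squares replicate 2 and the line joins the means of the 2 libraries. Fkbp5, Tsc22d3, Sgk1 and Klf9 are highest at 0 h, Cebpd falls and then climbs above its 0 h mean, and Zbtb16 stays at or below 4.02 normalized reads.

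Nr3c1 encodes the receptor itself. Its transcript was lowest at the end of the pulse, and all 16 later libraries were above both 0 h libraries. Its normalized read counts in replicate 1 and replicate 2 were 1506 and 1621 (0 h), 1747 and 1998 (4 h), 1799 and 2069 (8 h) and 1733 and 1945 (12 h). They were then 1882 and 1915 (16 h), 1889 and 1715 (20 h), 1796 and 1835 (24 h), 1844 and 1834 (28 h) and 1928 and 1965 (32 h). The 2 libraries of 0 h overlapped with no other time, while each neighbouring pair of the other 8 times in order of their means overlapped. At 8 h the level was 1.23-fold that of 0 h (log2 difference 0.30 ± 0.083 SE, limma adjusted p = 0.0121) and at 32 h 1.25-fold (adjusted p = 0.00740). It also rose at 4, 12, 16 and 28 h (adjusted p = 0.0409, 0.0419, 0.0164 and 0.0368), and did not pass at 20 h (0.0684) or 24 h (0.0556), where it passed with a replicate block (0.0167 and 0.0120). The 24 h difference also passed by edgeR (0.0414) and without any 1 library of 4, 8 or 12 h (0.0413 to 0.0481), and both with equal totals or quantile normalization, with ranges of 0.000847 to 0.350 at 20 h and 0.000614 to 0.269 at 24 h over 29 alternatives. The F test over the 9 times did not pass (adjusted p = 0.102; with the block 0.0123, with equal totals 0.00171 and with quantile normalization 0.0203).

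These Nr3c1 calls were close to the threshold. The log2 difference was 0.16 in place of 0.26 at 4 h without replicate 2 of 4 h, and 0.15 in place of 0.23 at 12 h without replicate 2 of 12 h. Without replicate 1 of 0 h, the lower of the 2 libraries there, none of the 6 calls was kept (adjusted p = 0.176 (4 h), 0.0827 (8 h), 0.207 (12 h), 0.115 (16 h), 0.204 (28 h) and 0.0671 (32 h)). The calls at 4 h and 12 h were each lost in 11 of 29 alternatives (adjusted p from 0.00558 to 0.256 and from 0.000848 to 0.274), which leave out replicate 2 of 4 h or of 12 h, replicate 2 of 0 h, or either library of 16, 28 or 32 h, test without a filter on the mean, or use no variance trend. The call at 8 h was also lost without replicate 2 of 8 h (0.128), that at 16 h without either library of 16 h (0.0586 and 0.0789), and that at 28 h without either library of 28 h (0.122 and 0.113) or with no variance trend (0.0550). Over its 29 alternatives the adjusted p ran from 0.000595 to 0.128 at 8 h, from 0.000267 to 0.115 at 16 h, from 0.000340 to 0.204 at 28 h and from 8.91e-05 to 0.0671 at 32 h.

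Fkbp5, a co-chaperone that lowers the hormone affinity of the receptor and so closes a feedback loop, fell fast and stayed low. In replicate 1 and replicate 2 its normalized reads were 6664 and 5959 (0 h), 3278 and 3147 (4 h), 2321 and 2346 (8 h) and 2291 and 2345 (12 h). From then on it held at 2425 and 2424 (16 h), 2499.9 and 2368 (20 h), 2494 and 2282 (24 h), 2356 and 2408 (28 h) and 2209.6 and 2322 (32 h). The 0 h libraries were above the 4 h libraries and those were above all libraries from 8 h on, with no overlap. Fkbp5 was 1.96-fold lower at 4 h than at 0 h (log2 difference -0.97 ± 0.063 SE, adjusted p = 5.47e-07) and 1.38-fold lower again at 8 h than at 4 h (-0.46 ± 0.063, adjusted p = 0.000397). After that the time means lay between 35.9% and 38.6% of the 0 h mean, and 32 h was 2.78-fold below 0 h (adjusted p = 8.82e-10). Neither 12 h against 8 h nor 24 h against 12 h passed (adjusted p = 0.995 and 0.746), nor did 28 h against 16 h or 32 h against 8 h (0.885 and 0.655). From its mean at 12 h to its later maximum at 20 h Fkbp5 regained 2.91% of the fall from 0 h (4.78% in replicate 1 and 0.646% in replicate 2). The call of every comparison with 0 h and of 8 h against 4 h held under all 29 alternatives, with adjusted p of at most 1.45e-05 at 4 h.

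Sgk1, a serine/threonine kinase that acts on ion channels and transporters and on FOXO factors, fell by less, and was lower on the second day than at the matching hours of the first. The counts of the 2 replicates were 27377 and 25197 (0 h), 22057 and 22074 (4 h), 19998 and 19143 (8 h) and 18229.6 and 18656 (12 h). They went on at 18479 and 18228 (16 h), 18614 and 16918 (20 h), 18668 and 16699.9 (24 h), 17521 and 16477 (28 h) and 16223 and 16796 (32 h). The 4 earliest times followed each other downwards with no overlap between neighbours. Among the times from 12 h on, neighbours in the order of means overlapped. The fall was 1.19-fold at 4 h (-0.25 ± 0.067 on the log2 scale, adjusted p = 0.0165), 1.42-fold at 12 h (adjusted p = 4.67e-05) and 1.59-fold at 32 h (-0.67 ± 0.067, adjusted p = 2.82e-06; -0.39 with quantile normalization). Between matched hours of the 2 days Sgk1 fell by 0.38 on the log2 scale from 4 h to 28 h (adjusted p = 0.000454) and by 0.25 from 8 h to 32 h (0.0144). The step from 4 h to 8 h did not pass (adjusted p = 0.116) and passed with a replicate block (0.0176). The call at 4 h was lost without replicate 1 of 0 h (0.106), replicate 1 of 4 h (0.0720) or replicate 2 of 4 h (0.0583), in a range of 0.000719 to 0.106 over its 29 alternatives. The call from 8 h to 32 h was lost without either library of 32 h (0.0884 and 0.0548), without replicate 1 of 8 h (0.105), with equal totals (0.0645) and with quantile normalization (0.0680), in a range of 0.000671 to 0.105. Quantile normalization also ended the call from 4 h to 28 h (0.0810, with a range of 1.31e-06 to 0.0810) and, with equal totals giving -0.20, gave a difference of -0.14.

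Klf9, a zinc finger repressor of the Krueppel-like family, fell to its lowest mean at 12 h and then regained part of the fall. Its counts in replicate 1 and replicate 2 were 3295 and 5070.4 (0 h), 1779 and 2265 (4 h), 1401 and 1717 (8 h) and 1226 and 1472 (12 h). Later they were 1349 and 1670.2 (16 h), 1653 and 1686 (20 h), 1913 and 1984 (24 h), 1707 and 1891 (28 h) and 1612 and 1943 (32 h). Both 0 h libraries were above all others, though they stood apart from each other. Replicate 2 was above replicate 1 at 9 of 9 times, by a median ratio of 1.21. Klf9 was 2.04-fold lower at 4 h (-1.03 ± 0.18 on the log2 scale, adjusted p = 0.00137) and 3.04-fold lower at 12 h (-1.60 ± 0.18, 1.18e-05). By 24 h the mean had come from 32.2% to 46.6% of the 0 h mean, which is 21.2% of the fall (33.2% in replicate 1 and 14.2% in replicate 2). Both 24 h libraries were above both 12 h libraries (1.45-fold, 0.54 ± 0.18), which did not pass by limma without the replicate block (adjusted p = 0.0952) and passed with it (0.000295) and by DESeq2 without a block (0.0336). Without either library of 0 h this difference also passed (0.0404 and 0.0405). Those libraries are not part of the comparison and enter only the shared estimate of spread. Over the 29 alternatives the adjusted p ran from 0.000295 to 0.421. The block likewise brought 8 h against 4 h past the threshold (0.221 without and 0.00550 with it). Klf9 stayed 2.31-fold below 0 h at 32 h (adjusted p = 0.000109). All 8 of its calls against 0 h held under the 29 alternatives.

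Tsc22d3, also called GILZ, encodes a leucine zipper protein that mediates part of the anti-inflammatory action of glucocorticoids, and its course had the same parts as that of Klf9: a fall to 12 h and a partial return. The counts in replicate 1 and replicate 2 were 656 and 800.5 (0 h), 447 and 489 (4 h), 312 and 389.7 (8 h) and 285 and 310.0 (12 h). From 16 h they were 305 and 342 (16 h), 397 and 391 (20 h), 396 and 494 (24 h), 400.0 and 438 (28 h) and 394 and 426 (32 h). The 0 h libraries were above all others, and the 12 h libraries lay below both libraries of every time from 20 h on. The 4 h libraries overlapped with those of 24 h. Tsc22d3 was 1.55-fold lower at 4 h (-0.63 ± 0.13 on the log2 scale, adjusted p = 0.00440) and 2.43-fold lower at 12 h (-1.28 ± 0.13, 5.61e-06). It rose 1.49-fold from 12 h to 24 h (0.57 ± 0.13, adjusted p = 0.0219), which returned 34.2% of the fall (29.9% in replicate 1 and 37.5% in replicate 2). At 24 h it remained 1.64-fold below 0 h (adjusted p = 0.000705). The rise was not called without replicate 1 of 12 h (0.154), replicate 2 of 12 h (0.0569) or replicate 2 of 24 h (0.191), in a range of 9.65e-05 to 0.191, and the fall at 4 h was not called without replicate 2 of 0 h (0.0722, range 1.44e-05 to 0.0722). With a replicate block 8 h against 4 h, 28 h against 16 h and 32 h against 8 h also passed (adjusted p = 0.00138, 0.00798 and 0.0400, against 0.0560, 0.182 and 0.216 without it). Of these, 8 h against 4 h (log2 difference -0.42 ± 0.13) passed also by DESeq2 (0.0428), with quantile normalization, without replicate 2 of 8 h (0.0395) and without any 1 library of 0 or 24 h, in a range of 0.00138 to 0.347.

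Cebpd, a basic leucine zipper transcription factor induced early by glucocorticoids and by inflammatory signals, fell at first and then climbed above its 0 h mean. Its counts in the 2 replicates were 887 and 1152 (0 h), 500.0 and 632 (4 h), 463 and 612 (8 h) and 491 and 621 (12 h). From 16 h they were 698 and 803 (16 h), 826 and 1182 (20 h), 1075 and 1434 (24 h), 1202 and 1516 (28 h) and 1157 and 1535 (32 h). The libraries of 4 h, 8 h and 12 h overlapped with each other and lay below those of every other time. Replicate 2 was above replicate 1 at 9 of 9 times, by a median ratio of 1.30. Cebpd was 1.90-fold lower at 8 h than at 0 h (-0.92 ± 0.22 on the log2 scale, adjusted p = 0.00534), and also passed at 4 h (0.0153) and 12 h (0.00682). It rose 2.25-fold from 12 h to 24 h (1.17 ± 0.22, adjusted p = 0.00755). At matched hours the second day was higher than the first: 2.40-fold at 28 h against 4 h (adjusted p = 0.000410) and 2.50-fold at 32 h against 8 h (0.000738), and both held under all 29 alternatives. The mean went from 52.7% of the 0 h mean at 8 h to 133% at 28 h, and both libraries of 28 h and of 32 h were above both of 0 h. The differences from 0 h did not pass at 24, 28 and 32 h (adjusted p = 0.323, 0.150 and 0.165) and passed with the replicate block (0.00112, 3.12e-05 and 5.11e-05). The block did the same for 16 h against 0 h (log2 difference -0.43, 0.143 without and 2.26e-05 with it) and for 28 h against 16 h (0.85, 0.0738 and 9.47e-08, and by DESeq2 0.00435). With equal totals the log2 difference of 28 h from 0 h was 0.63 in place of 0.42, and that of 32 h was 0.61 in place of 0.40 (adjusted p = 0.0222 and 0.0259). Without replicate 1 of 0 h they were 0.23 and 0.21, without replicate 2 of the later time 0.25 and 0.20, and without replicate 1 of 32 h the second was 0.60. These fits have no block, so the difference between the replicates enters them. Relative to the 0 h library of the same replicate, Cebpd was at 135% and 132% at 28 h and at 131% and 133% at 32 h. The difference of 16 h from 0 h was -0.24 with equal totals and -0.24 without replicate 2 of 0 h.

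With the replicate block and all libraries, the early Cebpd calls had an adjusted p of 1.13e-08 (4 h), 1.07e-09 (8 h) and 1.94e-09 (12 h). Relative to the 0 h library of the same replicate, Cebpd was at 56.4% and 54.9% (4 h), 52.2% and 53.1% (8 h) and 55.4% and 53.9% (12 h). In the fit without the block the early Cebpd calls were each lost without either of 2 libraries. Leaving out 1 library in that fit also brings the difference between the replicates into the comparison. Without replicate 2 of 0 h the adjusted p for 4, 8 and 12 h was 0.163, 0.0663 and 0.0784. Without replicate 1 of the later time it was 0.123, 0.0603 and 0.0680. The ranges over 29 alternatives were 1.13e-08 to 0.163, 1.07e-09 to 0.0663 and 1.94e-09 to 0.0784. The rise from 12 h to 24 h was not called without replicate 1 of 12 h (0.0839) or replicate 2 of 24 h (0.0850), in a range of 4.28e-10 to 0.0850.

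Ddit4, also called REDD1, encodes an inhibitor of mTORC1 that stress, hypoxia and glucocorticoids induce, and its course was another: up at 4 h, down at 8 h and up again on the second day. It was at 1496 and 1734 (0 h), 2177 and 1919 (4 h), 1258 and 1155 (8 h) and 1434 and 1341 (12 h) in replicate 1 and replicate 2. It then stood at 1853 and 1681 (16 h), 2064 and 2102 (20 h), 1914 and 2176 (24 h), 2335 and 2276 (28 h) and 2449 and 2318 (32 h). The libraries of 4 h were above those of 0 h, those of 8 h were below all others, and those of 28 h and 32 h were above all others with overlap between these 2 times. Ddit4 rose 1.27-fold from 0 h to 4 h (0.34 ± 0.089 on the log2 scale, adjusted p = 0.0148), fell 1.70-fold from 4 h to 8 h (-0.76 ± 0.089, 0.000119) and was then 1.34-fold below 0 h (0.00262). From 12 h to 24 h it rose 1.47-fold (0.56 ± 0.089, adjusted p = 0.00282), and at 32 h it was 1.48-fold above 0 h (0.000170) and 1.98-fold above 8 h (7.76e-06). Against 0 h it also passed at 20, 24 and 28 h (adjusted p = 0.00434, 0.00771 and 0.000348), did not pass at 16 h (0.271, with equal totals 0.0109), and passed as lower at 12 h only with the replicate block (0.0734 without and 0.0282 with it) or without replicate 1 of 0 h (0.0280), in a range of 0.0280 to 0.769. The rise at 4 h was not called without replicate 1 of 0 h (0.112) or of 4 h (0.137), in a range of 0.00192 to 0.137. The calls at 20 h and 24 h were lost without replicate 1 of 0 h (0.0626 and 0.101, ranges 0.000188 to 0.0626 and 0.000268 to 0.101), and that at 24 h also without replicate 2 of 24 h (0.0950). A rise from 16 h to 28 h (0.39 ± 0.089, adjusted p = 0.0495) was lost in 15 of 29 alternatives, with adjusted p from 0.00265 to 0.300. These were equal totals, no filter on the mean, no variance trend, and leaving out either library of 8, 12, 16, 20, 28 or 32 h (highest without replicate 2 of 28 h).

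Zbtb16, also called PLZF, is a zinc finger transcription factor that glucocorticoids induce strongly in many cells, and it was barely detected here. Over the 18 libraries it had 14 reads in total, with 9 libraries at 0 and at most 4 reads in 1 library (4.02 normalized reads, replicate 2 of 28 h). At 0 h the 2 libraries had 0 and 1.37 normalized reads. A count of 0 allows up to 3 reads, which is 2.58 to 3.86 normalized reads in the libraries at 0, a limit for counting error only. No change of Zbtb16 was detectable at this depth.

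**Figure D2:**
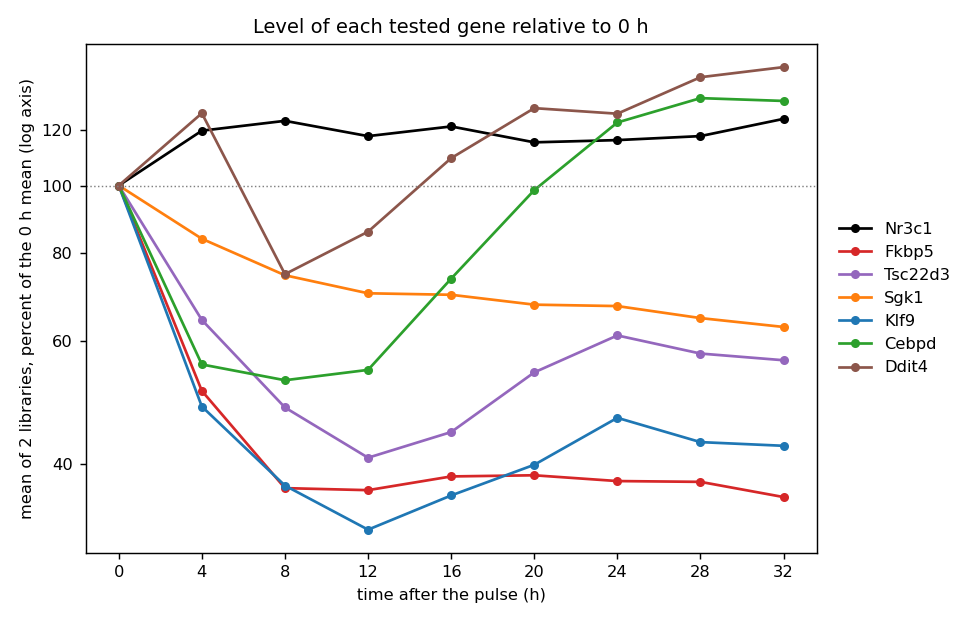
Mean of the 2 libraries at each time as a percent of the 0 h mean (y axis, log scale) against time after the pulse in hours (x axis) for the 7 tested genes; the dotted line marks 100%. Fkbp5, Klf9, Tsc22d3 and Sgk1 stay below 100% to 32 h, Nr3c1 stays above it, and Cebpd and Ddit4 cross it.

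Set side by side, the 7 tested genes left the pulse in different directions, and the comparisons with 0 h share the 2 libraries of 0 h, so they are not independent of each other. The genes, and the gene lists further below, were chosen with earlier results of these data known. Their counts beside the shares of all genes are therefore a description and no test. At 4 h all 7 passed, 5 of them lower (Fkbp5, Klf9, Cebpd, Tsc22d3 and Sgk1) and 2 higher (Nr3c1 and Ddit4), where 10.5% of all tested genes passed as lower and 11.0% as higher. The median log2 difference was -0.63 over the 7 genes and -0.0015 over all tested genes. Fewer of the 7, and fewer of all tested genes, passed without either library of 0 h or either library of 4 h. The median over the 7 genes was then -0.77 (without replicate 1 of 0 h) and -0.49 (replicate 2 of 0 h). It was -0.57 without replicate 1 of 4 h and -0.70 without replicate 2 of 4 h. At 8 h 6 were lower, now with Ddit4, and Nr3c1 was higher (over all genes 17.1% lower and 17.3% higher). At 12 h 5 were lower and Nr3c1 was higher (18.2% and 18.1%).

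From 16 h the lower genes were Fkbp5, Tsc22d3, Sgk1 and Klf9, which passed as lower at every later time. The higher gene was Nr3c1 at 16 h (over all tested genes 17.8% lower and 18.7% higher) and Ddit4 at 20 h (19.0% and 19.6%) and 24 h (18.6% and 18.6%). Both Nr3c1 and Ddit4 were higher at 28 h (20.0% and 19.8%) and at 32 h (20.4% and 20.5%). At 32 h the median log2 difference was -0.67 over the 7 genes and 0.013 over all tested genes. By the F test over the 9 times, 6 of 7 passed, all but Nr3c1 (which passed under the 3 alternatives given above), where 52.0% of all tested genes passed. The adjusted p of the 6 ran from 7.43e-09 (Fkbp5) to 0.000210 (Cebpd).

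The direction of genes as a whole depends on the scaling, since the deposited columns do not sum to 1 total. With the libraries brought to equal totals the median log2 difference of all genes from 0 h moved to 0.137 at 8 h and to between 0.182 and 0.225 at 12 h to 32 h. No called difference of the 7 genes changed sign. The share of higher genes among those passing moved from 51.1% to 61.4% at 4 h, from 50.3% to 77.7% at 8 h, and from 49.8% to 51.2% up to 80.1% to 81.3% at 12 h to 32 h. With equal totals the log2 difference of Nr3c1 was 0.41 in place of 0.23 at 12 h and 0.53 in place of 0.32 at 32 h, and it was over 1.5 times as large at each time from 12 h on. That of Ddit4 was -0.28 in place of -0.42 at 8 h, 0.57 in place of 0.37 at 20 h and 0.55 in place of 0.34 at 24 h. The fall of Sgk1 was smaller under both other scalings. With equal totals it was -0.28 in place of -0.42 at 8 h, -0.33 in place of -0.51 at 12 h and -0.46 in place of -0.67 at 32 h, and quantile normalization gave -0.23, -0.28 and -0.39. Each of these passed.

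**Figure D3:**
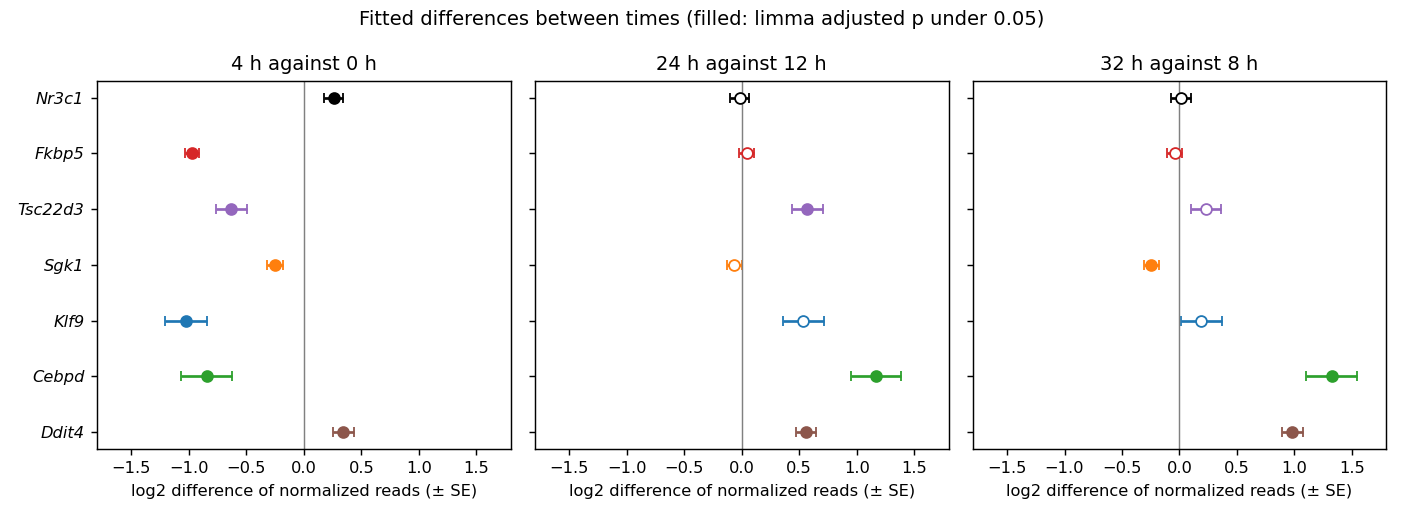
Fitted log2 differences of normalized reads (x axis) of the 7 tested genes (y axis) at 4 h against 0 h, 24 h against 12 h and 32 h against 8 h, 1 panel each; bars are ± SE from limma over all 18 libraries and filled points have an adjusted p under 0.05. All 7 points are filled at 4 h against 0 h, and Cebpd and Ddit4 lie to the right and filled in both later panels.

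In comparisons between later times the libraries of 0 h enter only the estimate of spread that all comparisons share. Between 4 h and 8 h, Fkbp5 and Ddit4 fell, 2 of 7 against 6.41% of all tested genes lower and 4.84% higher. With the replicate block Tsc22d3, Klf9 and Sgk1 were added, 5 of 7, beside 3043 of the 12393 tested genes. Between 8 h and 12 h no gene of the 7 passed (0 of 7 by limma, edgeR and DESeq2, and 1 at an unadjusted p under 0.05), where 0.387% of all tested genes were lower and 0.113% higher. Between 12 h and 24 h, 3 of 7 rose (Cebpd, Tsc22d3 and Ddit4) and none fell, against 3.32% of all tested genes higher and 3.11% lower. The median log2 difference was 0.54 over the 7 and -0.0071 over all tested genes. With the replicate block, and by DESeq2, Klf9 was added, so 4 of 7 rose. The block also raised the number of all tested genes that passed, higher or lower, to 2743. Without replicate 1 of 12 h or without replicate 2 of 24 h only Ddit4 was called, as given above for Tsc22d3 and Cebpd, and without replicate 2 of 12 h Cebpd and Ddit4 were. Between 16 h and 28 h Ddit4 alone passed, as higher, against 0.670% of all tested genes higher and 0.718% lower. With the block Cebpd and Tsc22d3 were added, 3 of 7, beside 1610 of all tested genes, and by DESeq2 Cebpd, beside 366.

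At matched hours of the 2 days, 28 h against 4 h had Cebpd higher and Fkbp5 and Sgk1 lower (over all tested genes 20.6% higher and 20.7% lower). Fkbp5 was 1.35-fold lower (-0.43, adjusted p = 9.22e-05; -0.25 with equal totals). Ddit4 (0.17 ± 0.089, 0.135) did not pass, and passed as higher with equal totals (0.35, 0.00603) and quantile normalization (0.24, 0.0490). At 32 h against 8 h Cebpd and Ddit4 were higher and Sgk1 was lower (13.5% higher and 14.1% lower over all). Klf9 and Tsc22d3 passed in neither (adjusted p = 0.506 and 0.359 in the first, 0.469 and 0.216 in the second), which does not show that their levels were equal. With equal totals the share of higher genes among those passing went from 43.0% to 78.5% at 8 h against 4 h, from 22.6% to 34.0% at 12 h against 8 h, from 51.7% to 65.7% at 24 h against 12 h, from 48.3% to 63.4% at 28 h against 16 h, from 49.9% to 77.8% at 28 h against 4 h and from 48.8% to 68.0% at 32 h against 8 h. At 28 h against 4 h the median log2 difference of all genes was 0.0086, and 0.187 with equal totals.

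A cosine and sine with a period of 24 h was fitted to ask whether a return followed a daily cycle, and none of the 7 genes passed (0 of 7 by limma and by edgeR), where 0.371% of all tested genes did. At an unadjusted p under 0.05 there were 3, Tsc22d3, Klf9 and Fkbp5, with adjusted p = 0.0621, 0.145 and 0.292. Tsc22d3 had a fitted peak-to-trough fold of 1.78 and a fitted peak near the end of the pulse, at 0.894 h. The fitted peaks of Klf9, Cebpd and Fkbp5 were at 0.517, 0.0795 and 23.9 h. The 9 times span little more than 1 cycle, and 0 h, the end of the pulse, falls near the fitted peak of each of these genes in the cycle. A fall from the pulse and a 24 h cycle can therefore not be told apart for Tsc22d3, Klf9, Cebpd or Fkbp5 by this fit. DESeq2 called 2 genes, Tsc22d3 (0.000530) and Klf9 (0.0122), and 533 of all tested genes where limma called 46. A linear term in time beside the cycle brought 4 past the threshold, Tsc22d3 (0.00582), Cebpd (0.0214), Klf9 (0.0238) and Fkbp5 (0.0484), with 2108 of the 12393 tested genes. Leaving out 0 h and 4 h brought none of the 7 past it, with 142 of all tested genes. A linear term does not remove a fall that is over by 8 h, as that of Fkbp5 was, so the same limit holds for that fit. Tsc22d3 also passed with the replicate block (0.0439) and without replicate 1 of 24 h (0.0346). Over the 31 alternatives the adjusted p ran from 0.000530 to 0.153 for Tsc22d3, 0.0122 to 0.268 for Klf9, 0.0214 to 0.588 for Cebpd and 0.0484 to 0.501 for Fkbp5.

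**Figure D4:**
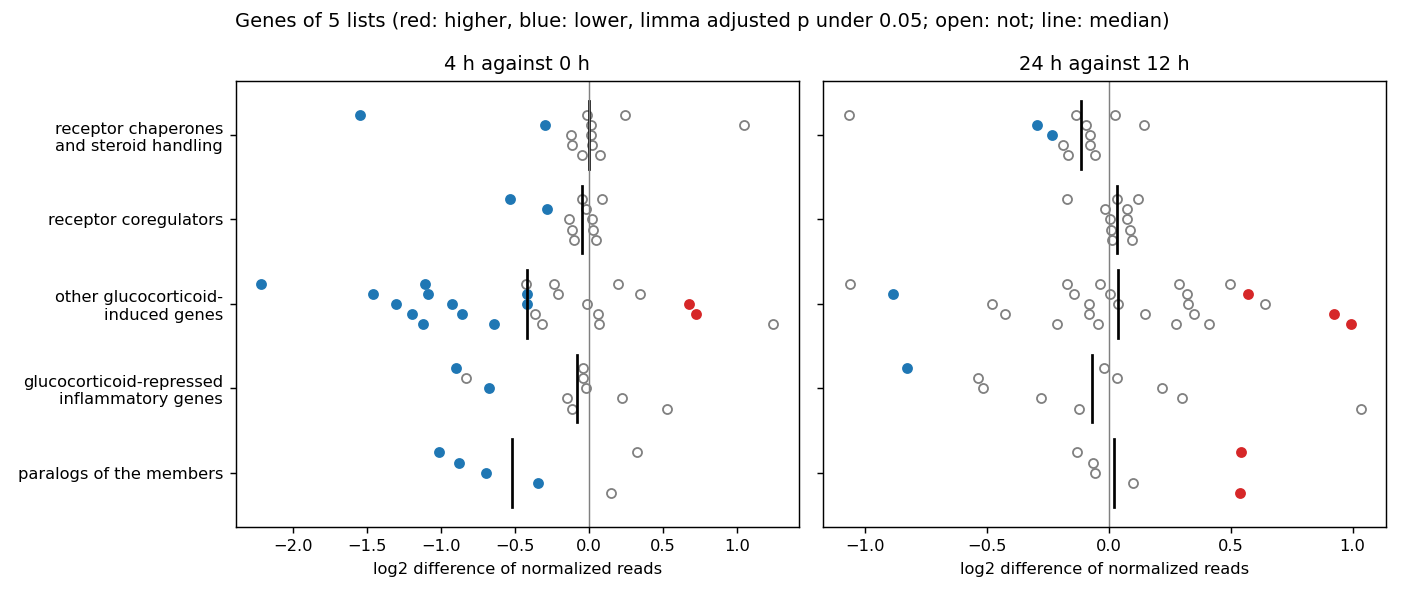
Fitted log2 differences of normalized reads (x axis) for the tested genes of 5 lists (y axis, points spread vertically for sight only) at 4 h against 0 h (left) and 24 h against 12 h (right). Red points were higher and blue points lower with a limma adjusted p under 0.05, open points did not pass, and the black line is the median of the list. Blue points at 4 h are 12 of the 25 genes in the longest list, other glucocorticoid-induced genes. They are also 4 of the 6 paralogs and 2 genes in each other list, where 10.5% of all tested genes were lower.

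Of 31 other genes known to be induced by glucocorticoids, 25 were tested, and at 4 h against 0 h 12 were lower, 2 higher and 11 did not pass (over all tested genes 10.5% lower and 11.0% higher), with a median log2 difference of -0.42. Errfi1, an inhibitor of the EGF receptor, went from 34713 and 43853 normalized reads at 0 h to 7827 and 8992 at 4 h (4.65-fold lower, -2.22 ± 0.14 on the log2 scale, adjusted p = 4.96e-07). Dusp1, a phosphatase of MAP kinases, went from 3111 and 3843 to 1363 and 1435 (2.47-fold lower, adjusted p = 1.52e-06), and Zfp36, which destabilizes cytokine transcripts, from 1436 and 1869 to 733 and 695 (2.29-fold lower, 2.88e-05). In all 3 of these the libraries of 0 h and 4 h did not overlap. Per1, a clock repressor with a receptor-driven early peak, went from 7102 and 8058 at 0 h to 3618 and 3344 at 4 h (2.17-fold lower, adjusted p = 1.52e-06). The 2 higher genes, named after their values were seen, were Bcl6 (0.72 on the log2 scale, adjusted p = 0.000228) and Angptl4 (0.68, 0.00404, and 0.0519 without replicate 2 of 0 h). Without replicate 2 of 0 h the median log2 difference of the list was -0.27, and fewer of its genes and of all tested genes passed. With the replicate block 16 were lower and 4 higher, with 2335 and 2327 of all tested genes.

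At 24 h against 12 h, 3 of these 25 genes were higher and 1 lower (over all tested genes 3.32% and 3.11%), with a median of 0.037. With the replicate block 10 were higher and 2 lower, with 1360 and 1383 of all tested genes. Per1 rose from 2343 and 2503 to 5036 and 4621 (1.99-fold, adjusted p = 1.88e-05), a larger log2 difference (0.99 ± 0.082) than that of Tsc22d3, Klf9 or Ddit4 in value and smaller than that of Cebpd. These differences between genes were not tested. The other 2 higher genes, named after their values were seen, were Lpin1 (0.92, adjusted p = 0.00451) and Fbxo32 (0.57, 0.0217). The call of Fbxo32 was lost without replicate 1 of 12 h (log2 difference 0.44) and without replicate 1 or replicate 2 of 24 h (0.55 and 0.59).

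Of 14 chaperone and steroid-handling genes 12 were tested, and 2 passed at 4 h against 0 h, both lower (over all tested genes 10.5% lower and 11.0% higher), with a median of 0.0010. H6pd, which supplies cofactor to the enzyme that reactivates glucocorticoids, was at 3329.8 and 3655 at 0 h and 2924 and 2754 at 4 h (-0.30 ± 0.060 on the log2 scale, adjusted p = 0.00349). Nr3c2, the mineralocorticoid receptor, was low throughout, at 25.3 and 34.3 at 0 h and 6.78 and 12.9 at 4 h (-1.55 ± 0.35, 0.00731). Without replicate 2 of 0 h neither passed (0.0600 and 0.0837), and Nr3c2 did not pass without replicate 1 of 4 h (0.0851). The drug exporters Abcb1a and Abcb1b, which carry steroids such as dexamethasone, did not pass (1.05 ± 0.47 and 0.24 ± 0.11, adjusted p = 0.129 and 0.119) and passed as higher with the replicate block (0.0426 and 0.00197). At 24 h against 12 h again 2 of the 12 passed as lower (3.11% of all tested genes), H6pd (-0.23, 0.0343) and the chaperone Hspa8 (-0.30, 0.0480), with a median of -0.11. Both were near the threshold. H6pd was lost in 8 of 29 alternatives, among them leaving out either library of 12, 24 or 32 h (adjusted p up to 0.230, without replicate 1 of 12 h), and Hspa8 in 19, among them 15 of the 18 that leave out 1 library (up to 0.261, without replicate 1 of 24 h).

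All 11 receptor coregulators were tested, and at 4 h against 0 h 2 were lower (over all tested genes 10.5% lower and 11.0% higher), with a median of -0.050. Nrip1, a corepressor, went from 634 and 703 to 428 and 493 (-0.54 ± 0.098 on the log2 scale, adjusted p = 0.00170), which held under all alternatives. Ncoa1, a coactivator, went from 901 and 947 to 771 and 749 (-0.28 ± 0.095, adjusted p = 0.0489), a call lost in 15 of 29 alternatives, among them edgeR (0.0570), DESeq2 (0.0593) and leaving out any library of 0, 4, 16, 20 or 32 h (up to 0.254, without replicate 2 of 0 h). The corepressor Ncor1 and the coactivator Ncoa2 did not pass (-0.14 and -0.11, adjusted p = 0.139 and 0.197). Ncor1 passed with the replicate block (0.0149), with which 4 of 11 were lower, and 2335 of all tested genes. At 24 h against 12 h 3.32% of all tested genes passed as higher and 3.11% as lower by limma. Of the 11 coregulators 0 passed there by limma, edgeR or DESeq2, with 0 at an unadjusted p under 0.05. The smallest adjusted p were those of Ep300 (0.094, 0.257) and Ncoa3 (-0.17, 0.315), and Ncoa3 passed with the replicate block (0.0447).

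Of 15 inflammatory genes that glucocorticoids repress 10 were tested, and at 4 h 2 were lower and none passed as higher (over all tested genes 10.5% lower and 11.0% higher), with a median of -0.081. Ptgs2, the inducible cyclooxygenase, went from 96949 and 68195 at 0 h to 50539.9 and 37553 at 4 h (-0.90 ± 0.23 on the log2 scale, adjusted p = 0.0141) and the chemokine Cxcl1 from 406 and 349 to 254 and 216 (-0.68 ± 0.13, 0.00270). Ptgs2 was not called without replicate 1 of 0 h (0.104) or replicate 2 of 4 h (0.107). The cytokine Il6 did not pass at 4 h (-0.83, adjusted p = 0.144, with the block 0.000853), nor did the chemokine Cxcl5 (-0.12, 0.518). At 24 h against 12 h Ptgs2 was the 1 gene of 10 that passed, as lower as were 3.11% of all tested genes (-0.83, 0.0480), and this call was lost in 14 of 29 alternatives, among them leaving out any library of 12, 16, 24, 28 or 32 h (up to 0.300, without replicate 1 of 12 h). Il6 did not pass (1.03, 0.134) and passed as higher with the block (0.000239).

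Of 9 paralogs of the 8 genes 6 were tested, and at 4 h 4 were lower (over all tested genes 10.5% lower and 11.0% higher), with a median of -0.52. Cebpb, a sister of Cebpd, went from 2046 and 2609 at 0 h to 1103 and 1179 at 4 h and 841 and 866 at 12 h, and was at 1171 and 1321 at 24 h. It fell by 1.02 ± 0.11 on the log2 scale to 4 h (adjusted p = 3.37e-05) and rose by 0.54 ± 0.11 from 12 h to 24 h (0.0117). Its libraries at 24 h were below those of 0 h, where those of Cebpd at 24 h overlapped with 0 h. Of the relatives of Tsc22d3, Tsc22d4 fell from 1703 and 2061 to 1000.0 and 1035 at 4 h (3.92e-05) and Tsc22d1 from 3192 and 3744 to 2568 and 2869 (0.00645). Klf13, the paralog of Klf9, fell from 3951 and 4453 to 2486 and 2685 (5.39e-05). At 24 h against 12 h 2 of the 6 passed, Cebpb and Tsc22d1, both higher as were 3.32% of all tested genes. Tsc22d1 went from 2302 and 2364 to 3559 and 3229.7 (0.54 ± 0.078, 0.00148). Leaving out replicate 1 of 4 h or replicate 2 of 0 h ended the call of Tsc22d1 at 4 h (0.0745 and 0.108), and leaving out replicate 1 of 12 h or replicate 2 of 24 h that of Cebpb at 24 h (0.0834 and 0.108).

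Likeness over the 18 libraries was described by Pearson correlation of log2(value + 1), with the 9 times and the 2 replicate series shared by all points. Among the 7 genes, Tsc22d3 and Klf9 were most alike (r = 0.961), followed by Fkbp5 and Sgk1 (0.912) and Fkbp5 and Klf9 (0.868). The r of Nr3c1 and Fkbp5 was -0.723. Fkbp5, Sgk1 and Klf9 were highest at 0 h and Nr3c1 was lowest there, and the r of the pairs with Fkbp5 was not computed without 0 h. Among all genes with a mean of at least 100, the 3 most like each gene were Cd2ap, Nat2 and Papola for Nr3c1 (highest r = 0.896), Micall1, Phf23 and Gfpt2 for Fkbp5 (0.986), Ereg, Ifrd1 and Srrm4 for Sgk1 (0.985) and Tnrc18, Rgma and Hdac5 for Ddit4 (0.876). For Tsc22d3 they were Klf9, Snai1 and Socs2 (highest r = 0.961), for Klf9 4930523C07Rik, Aff4 and Tsc22d3 (0.973) and for Cebpd Rpl10a, Gpx4 and H2afv (0.985). Over the 16 libraries without 0 h, a choice made after the data were seen, the r of the first-named gene was 0.828 for Nr3c1, 0.906 for Fkbp5, 0.969 for Sgk1, 0.928 for Tsc22d3, 0.862 for Klf9, 0.988 for Cebpd and 0.910 for Ddit4.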

How the data were processed

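RNA of 18 libraries was sequenced as single-end reads, per the labels' protocols. The deposited signal values are read counts per gene that the authors divided by 1 factor per library; the submitters' processing notes name TopHat, HTSeq, DESeq and mm9 without versions or roles. The step between low values recovered whole reads (largest distance 0.00611 reads, 100% of values within 0.02). Genes with a mean of at least 10 were fitted with limma 3.58.1 (R 4.3.3) on log2(value + 1), which understates changes of low genes, with all 18 libraries, a variance trend and Benjamini-Hochberg adjustment over 12393 genes at 0.05. All tests were two-sided. The contrasts were 14 pairs of times, an F over the 9 times and a 24 h cosine and sine. Alternatives were pseudocounts of 0.5 and 5, no filter or a mean of at least 50, equal totals, quantile normalization, no trend, robust eBayes, a replicate block, leaving out each library, edgeR 4.0.16, DESeq2 1.42.0 (both on recovered reads), and for the cycle a linear term or no 0 h and 4 h. Where 1 library of a time remained, its spread was taken from the other times. Same-numbered libraries deviated together from the means of their times, with correlations above 0.1 in all 36 pairs of times (0.230 to 0.502, median 0.345), so the numbers pair the libraries, though the labels state no source; counts of the 2 libraries of a time differed beyond sampling noise (chi-square per degree of freedom 7.55 to 16.6). Genes of the lists were named by adjusted p (up to 4 for 4 h against 0 h, 2 for 24 h against 12 h), and 3 genes per gene by likeness. The 8 genes and the lists were chosen with earlier results of these data known. The values of 1 gene of the lists are not reported here. The fits were also run on simulated counts with the same dispersion for all genes and no deviation shared by same-numbered libraries. That run does not show how the fit without a block behaves on libraries paired as these are. Promoter windows are RefSeq's (GRCm38.p6). Figures used Python 3.11.15 and matplotlib 3.10.9.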

Additional observations from a re-analysis of the deposited data

How the results depend on the processing

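With 2 libraries per time, calls near the threshold depend on single libraries. Of 112 fitted results for the 7 genes, 15 differences were under their own SE and are given without a value. Among the 435 values of these 15 under the alternatives, 26 changed sign. The other 97 gave 2827 values under the alternatives, of which 2700 kept direction and side of the threshold, 73 lost and 53 gained a call, and 1 changed sign (Tsc22d3, 28 h against 4 h, equal totals, 0.020). No called difference changed sign. Cxcl5 (4 h against 0 h, -0.12) ranged from -0.29 to 0.055 with 1 library left out, the last without replicate 1 of 0 h. The replicate block changed no call of the 7 genes other than those given above. With the replicate block the number of genes passing went from 2664 to 4662 at 4 h against 0 h, from 1395 to 3043 at 8 h against 4 h, from 62 to 479 at 12 h against 8 h, from 797 to 2743 at 24 h against 12 h, from 172 to 1610 at 28 h against 16 h, from 3422 to 5241 at 32 h against 8 h and from 46 to 74 in the 24 h cycle; the cause was not tested. Leaving out 1 library gave 971 to 2719 at 4 h against 0 h (lowest without replicate 2 of 0 h), 2571 to 4331 at 8 h against 0 h (main 4263, lowest without replicate 2 of 0 h), 572 to 1453 at 8 h against 4 h (lowest without replicate 2 of 4 h), 6 to 58 at 12 h against 8 h (replicate 2 of 12 h), 214 to 808 at 24 h against 12 h (replicate 1 of 12 h), 11 to 199 at 28 h against 16 h (replicate 2 of 16 h), 3409 to 5159 at 28 h against 4 h (main 5126, lowest without replicate 2 of 28 h), 1554 to 3508 at 32 h against 8 h (replicate 2 of 32 h) and 18 to 48 in the cycle (replicate 1 of 12 h). Equal totals gave 2381 at 8 h against 4 h and 19 in the cycle, no filter 109 at 28 h against 16 h and 26 in the cycle, and no variance trend 36 at 12 h against 8 h, 108 at 28 h against 16 h. DESeq2 gave 128, 366 and 533 at 12 h against 8 h, 28 h against 16 h and in the cycle. A linear term gave 2108 in the cycle and leaving out 0 h and 4 h gave 142. At 4 h against 0 h, edgeR called 2503 genes and DESeq2 2404.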
